A study of Caenorhabditis elegans with 2 samples.

Results

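Binding of the transcription factor MXL-3 was examined at 10 genes of propionate breakdown in Caenorhabditis elegans: the nuclear hormone receptor genes nhr-68, nhr-10 and nhr-114, and the enzyme genes acdh-1, ech-6, hach-1, hphd-1, alh-8, mmcm-1 and sucl-1. The 10 genes, of 19973 protein-coding genes in all, were chosen by name for their place in the pathway with the peak signals of these same profiles already known, so their peak values are given here as a description and no test was made on them. Summits of MXL-3 peaks were assigned to a gene where they lay between 2000 bp upstream of any annotated transcript start and the end of the gene. Chromatin immunoprecipitation sequencing (ChIP-seq) was made on whole L4 larvae, 48 hours old, of both sexes, as 2 biological replicates that form 1 group, and an antibody to GFP was used on chromatin sonicated to 200 to 800 bp. The larvae had been bleached and synchronised by starvation as L1. The strain, OP745, carried the insertion wgIs745, which holds mxl-3 fused to TY1, EGFP and 3xFLAG together with unc-119(+), in an unc-119 (tm4063) background. Because the larvae carried this transgene as well as the resident mxl-3 gene, and because no other strain, stage or diet was profiled, the values compare positions of 1 genome and not conditions. Occupancy in a few cells and weak occupancy in many cannot be told apart in whole larvae.

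MXL-3 is a basic helix-loop-helix leucine zipper factor of the Max family, whose members recognise the E-box CACGTG, and in C. elegans it is known as a repressor of lysosomal lipase genes in fed animals. Worms break down propionyl-CoA, a product of branched-chain amino acids and odd-chain fatty acids, by a vitamin B12-dependent route through methylmalonyl-CoA to succinyl-CoA. When B12 is scarce and propionate accumulates, an alternative route, the propionate shunt, is switched on, and NHR-10 and NHR-68 are the nuclear receptors that activate it. NHR-114 is known as an activator of methionine and S-adenosylmethionine (SAM) cycle genes when that cycle, the other user of B12, runs low.

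The authors' peak lists gave a thresholded list of 3935 peaks that passed the irreproducible discovery rate (IDR) criterion, and lists of 30000 peaks each, background included, from the pooled replicates and from each replicate. All 3935 thresholded peaks were the highest 3935 of the pooled list, where their signal, the authors' own value for a peak, ran from 91.1 to 1444.8. The scale of that value is not given in the sources used here, it carries no error, and the read depth behind it is unknown, so it serves to rank peaks within a list. MXL-3 summits of the thresholded list lay in the windows of 6 of the 10 genes, 1 in each. They were those of all 3 receptor genes and of 3 of the 7 enzyme genes: hphd-1, alh-8 and sucl-1. The windows of acdh-1, ech-6, hach-1 and mmcm-1 held none. Over all protein-coding genes 17.1% had such a summit in the window, and 16.1% of the genes whose windows were between 3332 and 6503 bp long, the range of these 10. As the genes were chosen with these signals known, nothing is read from that difference.

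The sequences under 5 of the 6 thresholded summits are shown because their E-box content differed. They are from the RefSeq WBcel235 sequence (ce11), 5′ to 3′ on the strand of the gene, with every E-box within 100 bp of the summit, and every CACGTG in the stretch, in capitals. The E-box classes searched were the 10 forms of CANNTG that remain when both strands are read together. Each stretch reaches at most 100 bp to either side of the summit, is extended to a further CACGTG of the peak unless a UTR or exon lies between, and leaves out annotated UTRs except for the few bases that hold a CACGTG at hphd-1.

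nhr-68 and alh-8 had CACGTG close to the summit, with other E-box classes beside it. The stretches are chrV:11572991-11573144 on the plus strand and chrII:11728573-11728773 on the plus strand.
nhr-68: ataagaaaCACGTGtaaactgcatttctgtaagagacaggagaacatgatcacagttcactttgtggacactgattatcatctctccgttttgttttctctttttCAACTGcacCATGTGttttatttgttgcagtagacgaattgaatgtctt
alh-8: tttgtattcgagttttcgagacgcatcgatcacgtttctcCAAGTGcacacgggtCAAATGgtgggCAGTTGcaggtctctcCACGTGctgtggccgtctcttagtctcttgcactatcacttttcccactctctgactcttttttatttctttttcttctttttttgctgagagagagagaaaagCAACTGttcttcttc
hphd-1 had CACGTG and CACTTG, the reverse complement of CAAGTG, on either side of the summit. The stretch is chrII:12996374-12996500 on the minus strand.
hphd-1: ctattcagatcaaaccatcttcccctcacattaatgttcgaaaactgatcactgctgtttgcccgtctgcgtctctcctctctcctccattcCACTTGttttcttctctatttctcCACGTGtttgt
nhr-114 had its only CACGTG of the peak near the edge and a run of 17 C downstream of the summit. The stretch is chrV:4186392-4186628 on the plus strand.
nhr-114: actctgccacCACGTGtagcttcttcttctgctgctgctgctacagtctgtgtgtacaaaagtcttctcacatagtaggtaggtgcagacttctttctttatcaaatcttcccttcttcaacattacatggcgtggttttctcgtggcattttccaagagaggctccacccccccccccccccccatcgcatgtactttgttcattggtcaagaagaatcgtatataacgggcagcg
nhr-10 had no CACGTG in the peak. The stretch is chrIII:7116741-7116941 on the minus strand.
nhr-10: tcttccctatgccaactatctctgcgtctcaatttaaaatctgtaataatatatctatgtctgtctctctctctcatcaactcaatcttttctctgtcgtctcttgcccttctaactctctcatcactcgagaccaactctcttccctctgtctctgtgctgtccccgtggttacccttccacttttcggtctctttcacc

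**Figure D1:**
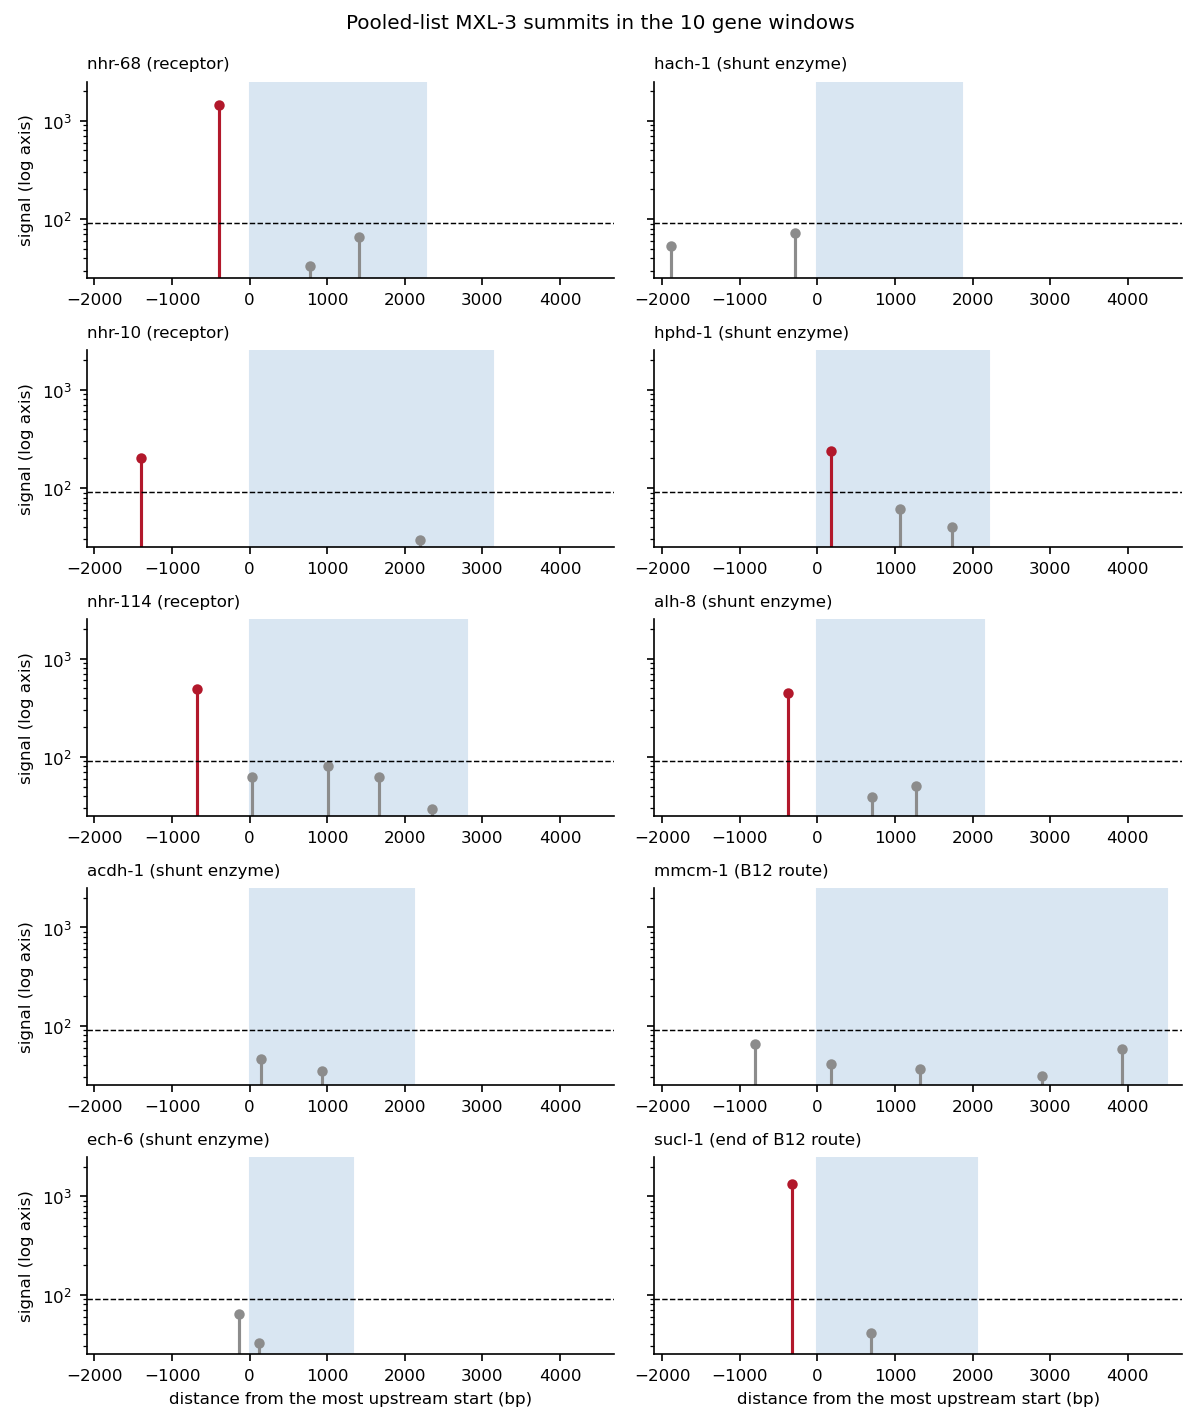
MXL-3 summits of the pooled list in the windows of the 10 genes, by distance from the most upstream annotated start in bp, with the authors' signal on a log axis. The blue band is the gene, red lines are summits that passed the IDR threshold, grey lines are summits that did not, and the dashed line is the lowest thresholded signal, 91.1. The red summits run from 200.5 at nhr-10 to 1444.8 at nhr-68, and acdh-1, ech-6, hach-1 and mmcm-1 have grey summits only.

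Among the receptor genes the summit at nhr-68 was the strongest of the thresholded list, that at nhr-114 ranked 116 and that at nhr-10 ranked 996. nhr-68 (WBGene00003658, chromosome V, 11573440 to 11575709, plus strand) encodes the receptor that acts below NHR-10 in switching on the shunt. Its peak, 11572842 to 11573252, had a summit at 11573044 in intergenic sequence, -396 bp from the nhr-68 start. The pooled signal was 1444.8. Replicate 1 gave 633.0 and rank 2, and replicate 2 gave 808.4 and rank 1. The replicate summits lay at -412 and -397 bp, so both lists placed it at the same position within 16 bp. The nearest start was not that of nhr-68 but that of H12C20.7, on the opposite strand, at -54 bp, and the peak reached into the coding sequence of that gene. Which of the neighbours the binding belongs to was not tested. The remaining pooled summits of nhr-68, inside the gene, had signals of 66.1 and 33.4 and fell below the threshold.

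nhr-114 (WBGene00003704, chromosome V, 4187202 to 4190008, plus strand), the methionine cycle receptor, had its summit at 4186528, -674 bp from the nearest of its starts, in an intron of Y45G5AM.9 on the opposite strand. The pooled signal was 494.3, with 226.4 and rank 109 in replicate 1 and 268.7 and rank 136 in replicate 2. Of all protein-coding genes 136 (0.681%) had a stronger summit in their window. nhr-114 also had 4 weaker pooled summits, from 29.5 to 81.3. One of them, 376 bp downstream of an internal start, was among the highest 3935 peaks of replicate 1 (signal 43.9, rank 3544) and far below them in replicate 2, where the summit nearest to it had a signal of 19.8 and rank 26210.

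nhr-10 (WBGene00003609, chromosome III, 7112295 to 7115438, minus strand), the receptor that acts above NHR-68, had the weakest and most distant of the 6 summits. It stood at 7116841, between genes and -1403 bp from the start, and its pooled signal was 200.5. Replicate 1 gave 70.3 and rank 1542, and replicate 2 gave 129.0 and rank 795, so the replicates differed more in rank than at the other receptor genes. Stronger summits were held by 1007 protein-coding genes (5.04%). With windows cut to 1000 bp upstream nhr-10 had no thresholded summit, and with 500 bp upstream neither nhr-10 nor nhr-114 had one.

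The shunt has 5 enzymes, and thresholded summits stood at its last pair of steps and not at its first 3. alh-8 (WBGene00000114, chromosome II, 11729055 to 11731198, plus strand) encodes the malonic semialdehyde dehydrogenase of the final step. Its summit at 11728673, -382 bp, had a pooled signal of 450.3 and rank 147, with 210.2 and rank 128 in replicate 1 and 235.2 and rank 189 in replicate 2. Its peak was 231 bp wide, narrower than the thresholded median of 376 bp. hphd-1 (WBGene00012608, chromosome II, 12994354 to 12996571, minus strand) encodes the dehydrogenase of the step before, which oxidises 3-hydroxypropionate. Its summit at 12996400 lay inside the gene, 171 bp downstream of the first annotated start and at -17 bp from an internal start, with a pooled signal of 238.8 and rank 714. Replicate 1 gave 74.9 and rank 1378 and replicate 2 gave 161.0 and rank 496, so replicate 2 ranked the site higher, as it did at nhr-10. Replicate 1 also had a second hphd-1 summit among its highest 3935 peaks, with a signal of 41.9 and rank 3863, which in the pooled list (signal 61.6) fell below the threshold.

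At the first 3 steps all pooled summits were weak. acdh-1 (WBGene00016943, chromosome I, plus strand), the acyl-CoA dehydrogenase that opens the shunt and the gene most used as a reporter of B12 status in the worm, had a strongest pooled signal of 45.8 at rank 13747, 148 bp downstream of its start. Replicate 1 had a summit of 37.0 at rank 4866, 26 bp downstream of the start. Replicate 2 had none within 100 bp of either position, and its strongest acdh-1 summit, 23.4 at rank 19729, stood at -883 bp. The replicates therefore did not place an acdh-1 summit at a shared position. For ech-6 (WBGene00001155, chromosome III), the enoyl-CoA hydratase, the strongest pooled summit had a signal of 64.0 and rank 7056 at -134 bp. Both replicates put an ech-6 summit at -145 bp, with 24.7 and rank 11469 in replicate 1 and 38.8 and rank 6949 in replicate 2. hach-1 (WBGene00017301, chromosome III), the hydrolase of the following step, came nearest to the threshold from below, with a pooled signal of 71.5 and rank 5793 at -283 bp. Its replicate summits, 30.0 at rank 7514 and 38.3 at rank 7162, lay at -279 and -316 bp. ech-6 and hach-1 thus had weak summits at a shared upstream position in both replicates, below the threshold, while acdh-1 had not.

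A contrast stood between mmcm-1, of the B12-dependent route, and sucl-1, which follows that route. sucl-1 (WBGene00007350, chromosome X, 14754026 to 14756081, plus strand) encodes an alpha subunit of succinyl-CoA ligase, the tricarboxylic acid cycle enzyme that takes up the succinyl-CoA made by this route. Its summit, at -326 bp, ranked 4 with a pooled signal of 1338.9, and the replicates gave 617.8 at rank 5 and 728.7 at rank 3. Only 3 protein-coding genes (0.015%) had a stronger summit in their window than sucl-1, and the same summit also lay in the window of C05G5.3, at -1689 bp. mmcm-1 (WBGene00014202, chromosome III), the methylmalonyl-CoA mutase that makes succinyl-CoA, had 5 pooled summits from 30.7 to 65.0, the strongest at rank 6874 and -809 bp. In replicate 1 the strongest mmcm-1 summit, 36.2 at rank 5070, stood far inside the gene, and in replicate 2 the strongest, 39.9 at rank 6611, stood at -690 bp, so the replicates did not share their leading mmcm-1 site. Replicate 2 did have a weaker summit, 20.6 at rank 24670, 6 bp from the leading mmcm-1 summit of replicate 1.

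**Figure D2:**
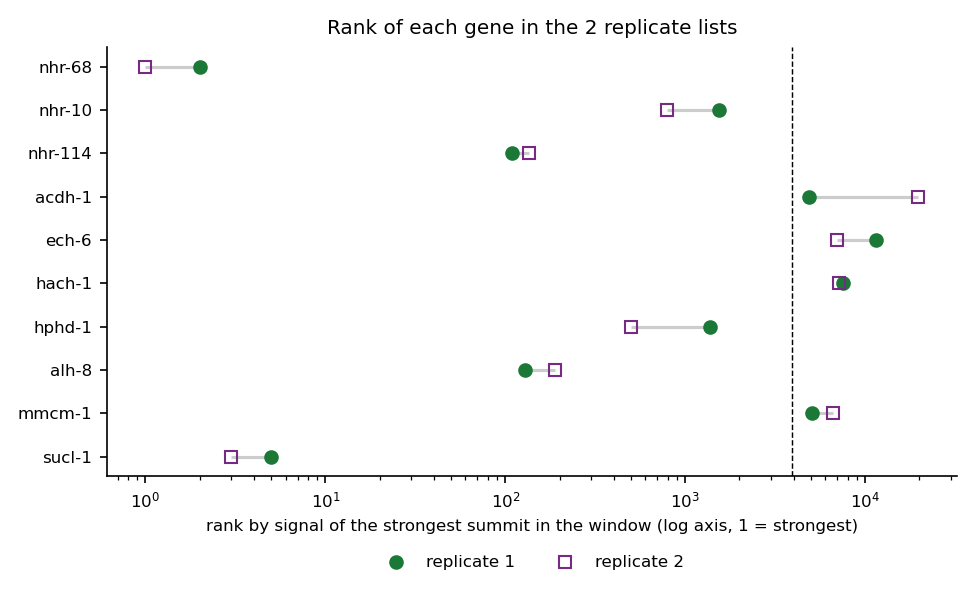
Rank by signal of the strongest summit in each gene's window in the replicate 1 list (filled circles) and the replicate 2 list (open squares), on a log axis where 1 is the strongest. The dashed line stands at rank 3935, the length of the thresholded list: nhr-68, nhr-10, nhr-114, hphd-1, alh-8 and sucl-1 lie left of it in both replicates and the other genes right of it in both.

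Both replicates separated the genes in the same way. Taking the highest 3935 peaks of each replicate list, the same 6 genes had a summit in replicate 1 and in replicate 2, beside 16.6% of all protein-coding genes in replicate 1 and 17.1% in replicate 2. Each of the 6 thresholded summits had a summit within 50 bp in both replicate lists. The replicates went into the threshold, so this is a description of where it falls. The lowest of the 6, nhr-10 at 200.5, stood above the threshold value of 91.1, and the highest of the other 4, hach-1 at 71.5, stood below it. The authors' −log10 q-value in the pooled list was 3.67 at all 6 summits and 1.2 at hach-1, 0.93 at mmcm-1, 0.89 at ech-6 and 0.31 at acdh-1. The value 3.67 was the same at signals from 200.5 to 1444.8, so it does not rank the 6 summits among themselves. All 10 genes had at least 1 pooled summit, as did 66.9% of protein-coding genes, with a median strongest signal of 55.4 among those that had one. acdh-1 lay below that median, and 8670 genes (43.4%) had a stronger summit, against 4603 for hach-1.

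**Figure D3:**
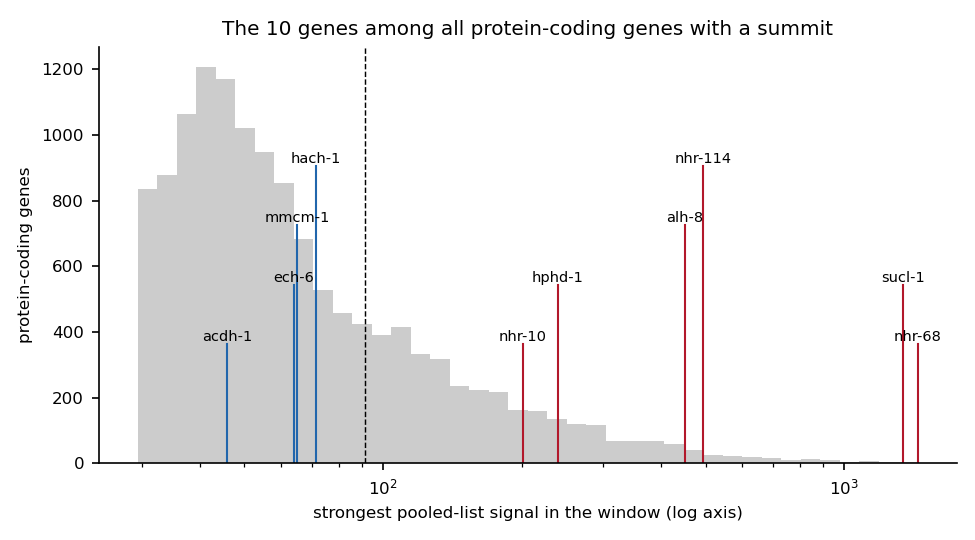
Histogram of the strongest pooled-list signal in the window of each protein-coding gene that had a summit, on a log axis, with the number of genes on the y axis and a line for each of the 10 genes (line heights only separate the names). The dashed line is the lowest thresholded signal, 91.1: acdh-1, ech-6, mmcm-1 and hach-1 lie to its left between 45.8 and 71.5, and the others to its right from 200.5 to 1444.8.

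E-box content was not shared among the 6 summits. CACGTG lay within 100 bp of the summits at nhr-68, hphd-1 and alh-8, 3 of 6, and was there at 15.9% of all thresholded summits (95% exact interval 14.8 to 17.1). CACGTG was at 20.0% of the thresholded summits above their median signal, which include all 6. Read along the gene, its centre was at -42.5 bp from the summit at nhr-68, at -15.5 bp at alh-8 and at 18.5 bp at hphd-1. Counted over the whole peak, nhr-114 joined them with a CACGTG at -123.5 bp from its summit, which made 4 of 6 beside 18.8% of all thresholded peaks. nhr-68 had a second CACGTG in its peak, inside the coding sequence of H12C20.7, and hphd-1 a second inside its own intron. None of the 6 summits had the extended form TCACGTGA, found at 1.14% of all.

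Other E-box classes accompanied CACGTG at the same 3 genes. alh-8 had the most E-boxes, 5 within 100 bp, with CAACTG at 2 positions beside CACGTG and single copies of CAAGTG and of CAAATG. nhr-68 had CACATG and CAACTG downstream of its summit, and hphd-1 had CAAGTG at -5.5 bp from its own. sucl-1, with a signal almost as high as that of nhr-68, had CAATTG as its only E-box within 100 bp, 46.5 bp downstream, a class at 7.85% of all thresholded summits. At nhr-10 and nhr-114 there was no E-box of any class within 100 bp, whereas 67.2% of all thresholded summits had one. Absence of these letters from the window says nothing of how MXL-3 was held there.

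The 6 summits also differed in base composition. That of sucl-1 had 56.7% G and C within 100 bp, above the thresholded median of 44.8%, and that of hphd-1 had 34.3%, the lowest of the 6. nhr-10 stood in a pyrimidine tract, with 73.6% C or T on the strand of the gene, and held GAGAGA at 5 positions that partly overlap. GAGAGA, a motif added after the sequences had been seen, was also near the summits of nhr-68, hphd-1 and alh-8, 4 of 6 beside 42.7% of all thresholded summits. The run of 17 C at nhr-114 had a match in length, as C or G, at 11 of the 3935 thresholded summits, that of nhr-114 included. Whether that run affects the mapping of reads was not tested. TGATAA, the extended GATA site that the gut factor ELT-2 recognises, stood near the summits of nhr-68, nhr-114 and hphd-1, 3 of 6 beside 27.6% of all.

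**Figure D4:**
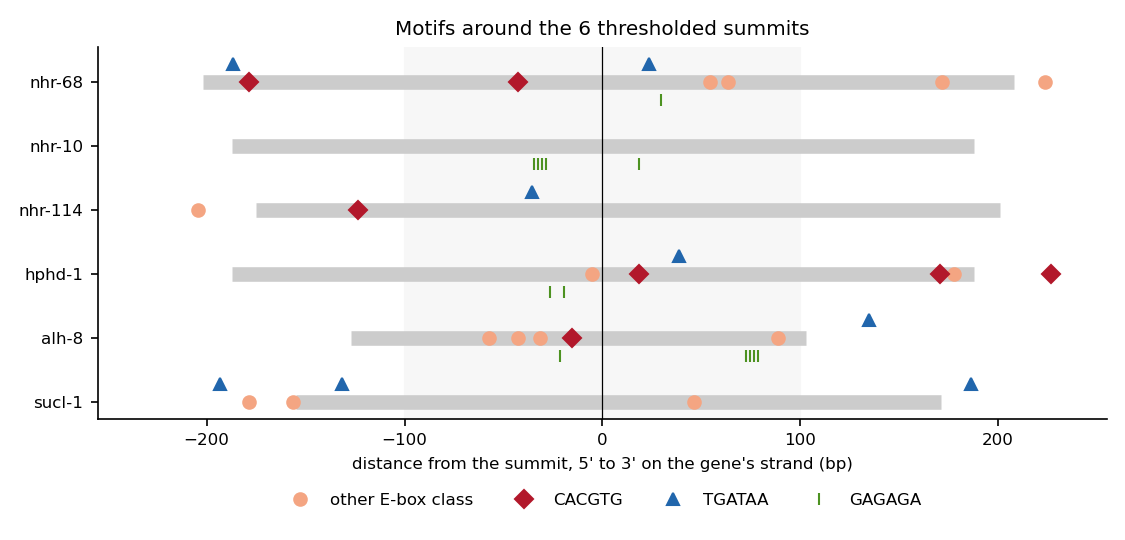
Positions of motifs around the 6 thresholded summits, in bp from the summit, read 5′ to 3′ on the strand of the gene. Grey bars are the peaks, the shaded band is the 100 bp to either side that was searched, red diamonds are CACGTG, orange circles other E-box classes, blue triangles TGATAA and green ticks GAGAGA. nhr-68, hphd-1 and alh-8 have a red diamond in the band, nhr-114 has one outside it and nhr-10 and sucl-1 have none.

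Most CACGTG sites of these genes were not under a summit. The 10 windows held 15 CACGTG sites, of which 3 lay within 100 bp of a thresholded summit and 6 inside a thresholded peak. Over the windows of all protein-coding genes 3.66% of 15086 sites lay within 100 bp of a thresholded summit. nhr-10 and acdh-1 had no CACGTG anywhere in the window. hphd-1 had 4 sites and alh-8 had 3, with 1 of each near the summit. ech-6 and hach-1 had 1 each inside the gene, the former in coding sequence and the latter in an intron, both far from any thresholded summit. The single mmcm-1 site, in coding sequence, lay 22 bp from a pooled summit with a signal of 30.7, and 23 bp from a replicate 2 summit with 20.5, whereas the nearest replicate 1 summit was 1011 bp away. The single sucl-1 site was 1176 bp from the summit at that gene.

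The other genes of the pathways were taken from lists that are described by counts alone. Of 6 listed regulators of acdh-1, 5 had a thresholded summit in the window, beside 17.1% of all protein-coding genes. Besides nhr-68 and nhr-10 they were nhr-23, a receptor of the moulting cycle (232.4), mdt-15, a Mediator subunit that serves lipid and detoxification genes (165.2), and elt-2, the gut GATA factor (100.5). The mdt-15 summit lay nearer to the start of W04D12.1 and ranked 6458 in replicate 1, and the elt-2 summit ranked 4785 in replicate 2, outside its highest 3935. sbp-1, the worm SREBP, had a strongest pooled signal of 54.0 and no thresholded summit.

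In the B12-dependent list 4 of 7 genes had a thresholded summit, and in the succinyl-CoA ligase list 2 of 4, beside 17.1% of all protein-coding genes. Those of the B12-dependent list were weak: pcca-1 at 120.0 and pccb-1 at 105.4, the subunits of propionyl-CoA carboxylase, cblc-1 at 95.1 and mmab-1 at 92.8, both B12-handling genes, against a threshold of 91.1. The pccb-1 summit had no replicate 2 summit within 100 bp, the nearest being 176 bp away, and the cblc-1 summit ranked 8883 in replicate 2 and lay nearer to the start of ZK546.19. The mmab-1 summit ranked 7428 in replicate 1. mce-1, mmcm-1 and mmaa-1 had none. Of the 4 succinyl-CoA ligase genes, sucl-1 and suca-1, a beta subunit gene, had one, suca-1 with 468.5 at rank 138 and ranks 99 and 195 in the replicates, while sucl-2 and sucg-1 had none. The suca-1 summit lay at -1078 bp from the nearest start of that gene. The strong summits of these lists thus stood at sucl-1 and suca-1, genes of the enzyme that takes up the product of the route. In the B12-dependent list itself no summit was above 120.0.

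The methionine and SAM cycle is the other pathway that uses B12. Its list also holds adjoining genes, among them cth-2, cbs-1, mthf-1, mel-32, pmt-1 and pmt-2. Thresholded summits stood at 10 of the 15 listed genes (66.7%), beside 17.1% of all protein-coding genes. The strongest stood at cth-2, a cystathionine gamma-lyase gene, with 399.4, and at pmt-1 and pmt-2, the phosphoethanolamine methyltransferase genes that draw on SAM, with 286.3 and 280.7. The pmt-1 summit had CACGTG within 100 bp. metr-1, the B12-dependent methionine synthase, had 196.8 with CACGTG within 100 bp of the summit, and its reductase mtrr-1 had 145.2, also with CACGTG. mthf-1, the methylenetetrahydrofolate reductase, had 200.5, cbs-1, a cystathionine beta-synthase, 171.0 with CACGTG, sams-1, a SAM synthetase, 151.9, and ahcy-1, the adenosylhomocysteinase, 117.2. The summits at cth-2, mtrr-1 and ahcy-1 lay far upstream, at -1497, -1732 and -1049 bp from the nearest start of the gene. The summit in the mel-32 window, 127.7, stood 2 bp from the start of C05D11.13. No pooled summit lay in the windows of sams-3 and sams-4, close paralogs of each other, and how reads that map to several places were handled is not given in the sources used here.

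**Figure D5:**
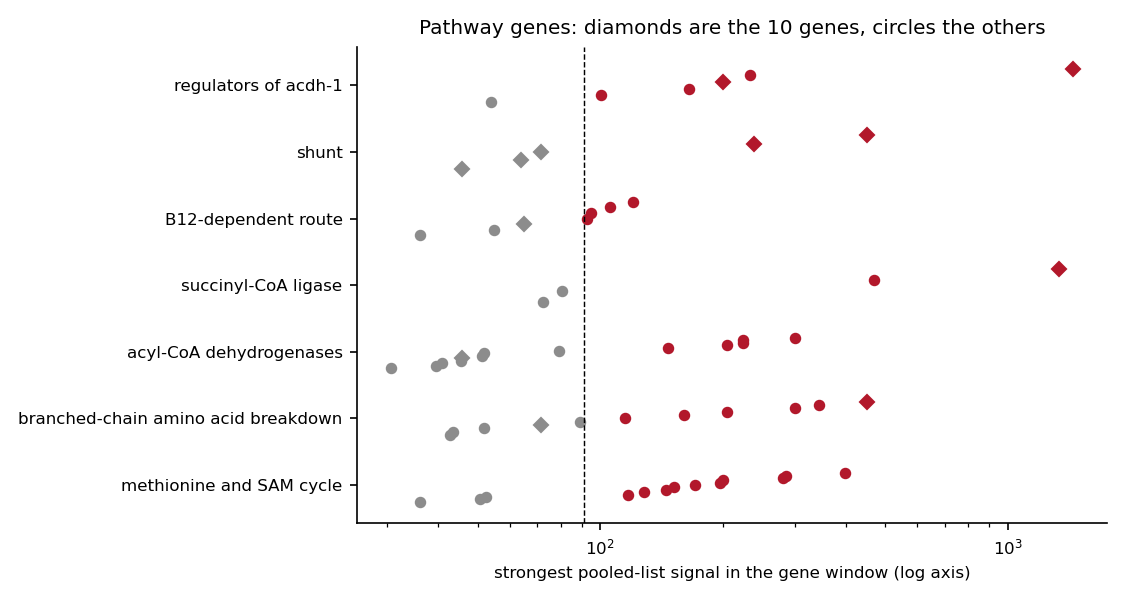
Strongest pooled-list signal in the window of each listed gene, on a log axis, by pathway list; points are moved up or down within a list only to keep them apart. Diamonds are the 10 genes and circles the others, red points passed the IDR threshold and grey points did not, and the dashed line is the lowest thresholded signal, 91.1. nhr-68 and sucl-1 lie far to the right of every other point, and genes with no pooled summit are not drawn.

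Over all the lists 26 of the 47 genes other than the 10 had a thresholded summit (55.3%), beside 17.1% of all protein-coding genes, and 10 of those 26 had one that ranked as high as that of nhr-10 or higher. Their strongest summit had CACGTG within 100 bp at 10 of the 26 genes (38.5%), and of the 37 separate thresholded summits in their windows 12 (32.4%) had it, beside 15.9% of all thresholded summits. Genes on these lists share summits and pathways and were listed with earlier results in view, so the counts stand as a description.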

How the data were processed

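MXL-3 ChIP-seq peak lists from 2 replicates of whole L4 larvae were analysed. Per the labels and the listings deposited with each replicate, the authors called peaks in each replicate and in the pooled replicates against a control, and took the IDR-thresholded list from the pooled one, on assembly ce11. Not given in the sources used here are the aligner, the peak caller, the control's strain and the treatment of reads with several matches. The deposited signal of each peak has no stated scale and was compared only within a list. The deposited −log10 q-value was used as a description, and the summit is the peak start plus the authors' summit offset. Depth is unknown. The sequence at sucl-1 is not reported here. No other column of samples was present.

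Positions are 1-based. Genes and transcript starts came from Ensembl release 115, sequence from RefSeq WBcel235, and peaks lay within its 6 nuclear chromosomes. Ranks are by signal. A summit was assigned to every protein-coding gene whose window (2000 bp upstream of any start to the gene end) held it, and distances run to the nearest start of the gene. Motifs were searched on both strands and counted where the whole motif lay within 100 bp of the summit. Intervals are exact (Clopper-Pearson, 95%) and cover counting error only. The assignment and motif search were tested on simulated peaks. No test was made between groups, as there was 1 group. The genes and the 7 pathway lists were chosen with earlier results of these data known. Named were the 10 genes, the other listed genes with a thresholded summit, and neighbours sharing a summit or nearest to it; listed genes without a summit are named beside them. GAGAGA and the distances of CACGTG sites to summits were added after seeing the data. Alternatives were other windows, peak lists, distances and gene assignments. Software was scipy 1.17.1, pandas 2.3.3 and numpy 2.4.6 under Python 3.11.15, with matplotlib 3.10.9 for plots.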

Additional observations from a re-analysis of the deposited data

How the results depend on the processing

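Of 60 values recomputed under alternatives, 49 kept within 1.5 times the reported count or within the interval of the reported share, and 11 moved. The whole pooled list, background included, gave a summit to all 10 genes, 29 summits in all, and to 13355 protein-coding genes, and CACGTG at 7.97% of summits. Keeping only the thresholded peaks above their median signal gave 1844 genes and CACGTG at 20.0% of summits. It could not remove any of the 6 genes, since their summits all ranked 996 or higher of 3935. CACGTG was at 11.3% of all thresholded summits within 50 bp, at 19.5% within 200 bp and in 18.8% of peaks. Leaving out a replicate meant taking the highest 3935 peaks of the other, as reported above. It gave 1 to 2 summits at nhr-114 and 1 to 2 at hphd-1, and the same 6 genes. Windows of 1000 bp upstream left 5 genes and of 500 bp left 4, and assigning summits to the nearest start left 5 of 6, since that of nhr-68 went to H12C20.7. No paired analysis was possible because there was only 1 group. The lists hold no read counts, so no value carries a counting error, and weak summits such as those at acdh-1 cannot be told from background peaks.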

Other observations

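The branched-chain amino acid breakdown list includes hach-1 and alh-8 of the shunt. It had a thresholded MXL-3 summit at 6 of 11 genes (54.5%), alh-8 included, beside 17.1% of all protein-coding genes. The strongest after alh-8 was at bcat-1, the branched-chain aminotransferase, with 343.6 and CACGTG within 100 bp. dbt-1 and dld-1, subunits of the branched-chain ketoacid dehydrogenase complex, had 160.8, with CACGTG, and 114.7. The dehydrogenases acdh-9 and ivd-1 had 299.9 and 204.5, both with CACGTG.

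Of 14 acyl-CoA dehydrogenase genes, the family of acdh-1, 5 had a thresholded summit (35.7%), beside 17.1% of all protein-coding genes. Besides acdh-9 and ivd-1, acdh-11 had 146.8, and acdh-7 and acdh-10 shared a summit of 223.5, with CACGTG, in an intron of acdh-7. The lists overlap in acdh-3, acdh-9 and ivd-1, were chosen with earlier results in view, and were not tested.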
